A study of Arabidopsis thaliana with 7 samples.

Results

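The members described here are the 326 microRNA loci of Arabidopsis whose symbol is MIR followed by a number in the RefSeq gene table, a rule that uses the symbol and no measured value. A locus counted as called in a library where that library's peak list held a peak whose centre lay within 1500 bp of either locus end, and as called in a light where at least 2 of its 3 lists did so. In all, 75 of the 326 loci were called in blue light and 48 in red light. The gene table holds 89 of the loci on chromosome 1, 55 on chromosome 2, 50 on chromosome 3, 55 on chromosome 4 and 77 on chromosome 5, with lengths of 59 to 689 bp.

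Plant microRNAs are short RNAs cut by the DCL1 enzyme from hairpin precursors that RNA polymerase II transcribes, and they guide the AGO1 protein to matching messenger RNAs, which are then cut or kept from translation. Their loci have promoters like protein-coding genes, so transcription factors can set how much precursor is made. HY5 is a bZIP transcription factor that acts downstream of the photoreceptors and binds DNA with an ACGT core, and MIR408 is a locus at which HY5 is known to act together with the copper regulator SPL7.

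Whole plants of the Wassilevskija (Ws) accession, 10 days old, were used, and every sample carried the hy5-ks50 T-DNA insertion and expressed the HY5-YFP fusion, whose promoter the labels do not name. After entrainment to 12 hours of white light and 12 hours of darkness, plants stayed for 52 hours under blue light or under red light (15 µmol m-2 s-1). Blue and red light had 3 replicates each, and chromatin pulled down with GFP-Trap beads was sequenced (ChIP-seq). A single mock, pulled down with antibody-free beads from pooled blue light material, served as the control for all 6 peak lists, and plants without the fusion were not analysed here. In whole plants, fewer cells with HY5-YFP at a site and less HY5-YFP per cell cannot be told apart.

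The libraries held 7.99 to 11.7 M tags (1 M is 1e6) in blue and 10.6 to 11.9 M in red light, with 8524 to 8888 peaks per blue list and 4027 to 5672 per red list. Peak heights are given as tags, meaning tags per 10 M tags of the library. Peak windows were 340 to 348 bp wide in blue light and 549, 306 and 312 bp in red light replicates 1, 2 and 3, and at every one of the 36 microRNA loci called in all 6 lists red light replicate 1 had more tags than both other red light libraries. The fragment length in the file headers was 548 bp in red light replicate 1, against 188 to 226 bp in the other libraries. What part window width and fragment length have in this was not tested. Their part in the differences between blue and red light tags was not tested either.

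A smaller share of microRNA loci than of protein-coding genes had HY5-YFP peaks. Of the 326 loci 23% were called in blue light, against 44.6% of 27432 protein-coding genes under the same rule, and 14.7% were called in red light, against 27.4%. All 6 lists held a peak at 36 loci (11%, against 20.2% of protein-coding genes). Among other short loci the blue share was 46% for 287 snoRNA, 36.6% for 82 snRNA and 31.5% for 625 tRNA loci, and the red share 25.1%, 23.2% and 17.6%. These shares are a description: the window around a protein-coding gene covers more sequence, since the median length is 144.5 bp for microRNA loci and 2078 bp for protein-coding genes, and neighbouring loci share peaks. The share also went with the neighbourhood, for of the 86 microRNA loci with no protein-coding gene within 1500 bp 11.6% were called in blue and 5.81% in red light, against 29.1% and 19.9% of the 151 loci with such a neighbour and no overlap, and 23.6% and 14.6% of the 89 that overlap one. Of 109 tRNA loci with no protein-coding gene within 1500 bp, 4.59% were called in blue and 2.75% in red light. These shares lay below those of microRNA loci, while those of such snoRNA, snRNA and lncRNA loci lay above.

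**Figure D1:**
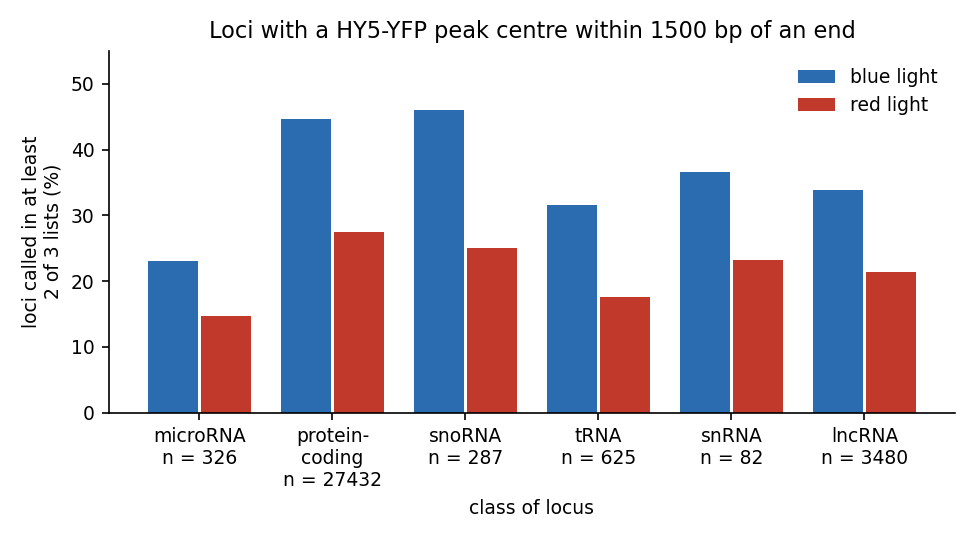
Share of loci of each class (in %, vertical axis) with a peak centre within 1500 bp of either end in at least 2 of 3 lists, for blue light (left bar of each pair) and red light (right bar). Taken as whole classes, microRNA loci have the lowest share of the 6 in both lights, with 23% in blue and 14.7% in red light.

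More microRNA loci were called in blue than in red light when whole lists were compared, and nearly equally many when the lists were equally long. The blue libraries called 80, 78 and 79 loci, against 41, 52 and 48 in the red libraries, and the groups did not overlap. The blue libraries averaged 79 ± 1 loci and the red libraries 47 ± 5.57 (SD, n = 3 each), which differ by 32 loci; p = 0.1 in an exact permutation test, two-sided, which cannot go lower with so few libraries. As a share of each list, peaks near a microRNA locus made up 0.846% ± 0.0121 of the blue lists and 0.898% ± 0.0632 of the red lists (SD, n = 3 each; p = 0.3, same exact permutation test). With the 4027 highest peaks of every library, which makes the lists equally long, the blue minus red difference was -0.333 loci. Then 39, 39 and 37 loci were called in blue light, against 41, 38 and 37 in red light, and 38 loci reached 2 blue lists, against 39 that reached 2 red lists. These are 11.7% and 12.0% of the 326 loci, against 21.6% and 21.6% of protein-coding genes with the same lists. Near equality of the lights was thus shared with protein-coding genes. All 48 loci called in red light were also called in blue light, and they are 64% of the 75 blue loci, against 61% for protein-coding genes. A further 27 loci were called in blue light alone (8.28% of 326, against 17.4% of protein-coding genes) and 0 in red light alone (against 0.179%). Another 17 loci had a peak in 1 list of a light at most, among them MIR156j, MIR161, MIR158b, MIR391, MIR399d and MIR399e, and 234 had none.

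At most of the called loci a protein-coding gene end lay nearer to the site than the end of the microRNA locus. Of the 75 loci called in blue light the microRNA end was nearer at 25 and a protein-coding end at 50, and of the 48 called in red light the counts were 14 and 34. The same split is not given here for other classes of loci or for all sites, so it is a description. Of all microRNA loci, 89 overlap a protein-coding gene and a further 151 have one within 1500 bp. The median distance of the site centre was 521.5 bp to the microRNA end and 236 bp to the nearest protein-coding end. At 24 of the 75 loci the site centre lay inside a protein-coding gene, and at 4 it lay inside the microRNA locus itself. The 75 loci rested on 69 sites, because 6 sites were each shared by 2 loci: MIR826a and MIR826b, MIR842 and MIR846, MIR781a and MIR781b, MIR850 and MIR863, MIR397b and MIR857, and MIR4227 and MIR5022. At 8 of the 75 loci no protein-coding gene end lay within 1500 bp of the site: MIR172b, MIR390a, MIR4240 and MIR866 were called in both lights, and MIR166a, MIR850, MIR863 and MIR4221 in blue light alone. Restricted to peaks outside protein-coding genes with the microRNA end nearer, 21 loci were called in blue and 12 in red light. Gene ends are those of assembly TAIR10.1 and peak positions those of TAIR10, and since the table carries no strand, upstream and downstream were not told apart.

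**Figure D2:**
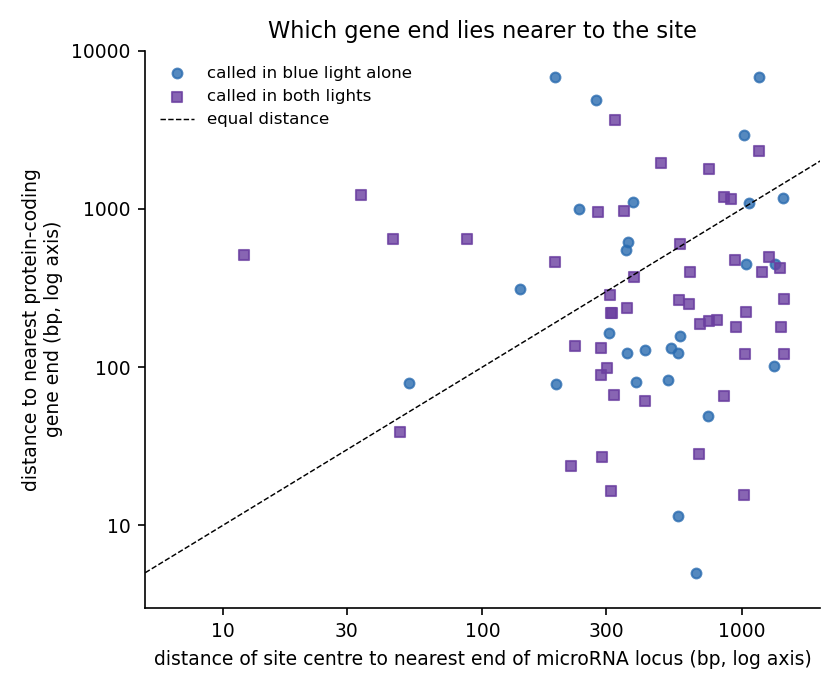
Distance in bp of the site centre to the nearest end of the microRNA locus (horizontal) and to the nearest protein-coding gene end (vertical), both on log axes, for the 75 called loci; circles are loci called in blue light alone, squares those called in both lights, and the dashed line marks equal distances. Points below the line, 50 of 75, lie nearer to a protein-coding gene.

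The highest site near a microRNA locus belonged by distance to another gene. MIR8167f had 886, 843.5 and 781 tags in blue light replicates 1 to 3, against 849.9, 569 and 544 in red light, but the site lay 1454 bp from its end and 121 bp from the end of BOA, a gene of the circadian clock. The site of MIR8173 (632, 644 and 626 tags in blue light replicates 1 to 3, against 518, 451 and 396 in red light) lay inside INV-E, that of MIR5658 (621, 575 and 672 tags in blue light replicates 1 to 3, against 623, 412 and 454 in red light) inside AT4G39840, and that of MIR777 (569, 533 and 512 tags in blue light replicates 1 to 3, against 386, 299 and 273 in red light) inside AT1G70640. All blue values at MIR8173 and MIR777 lay above all red ones, while at MIR8167f and MIR5658 red light replicate 1 lay within the blue range. MIR825 had 514, 554 and 538 tags in blue light replicates 1 to 3, against 440, 292 and 339.9 in red light, with a site 23.5 bp from AT2G26210 and 219.5 bp from the microRNA end. MIR157d had 549.5, 487.5 and 548 tags in blue light replicates 1 to 3, against 524, 321 and 384.5 in red light, with a site 28 bp from AT1G48740. Both MIR825 and MIR157d are described again with their families, and red light replicate 1 came within the blue range at MIR157d but not at MIR825.

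Of the 36 loci called in all 6 lists, 9 had their own end nearer to the site than a protein-coding end. MIR399c, of the family that acts in phosphate starvation, was the highest of those outside genes, with 572, 598 and 662 tags in blue light replicates 1 to 3, against 528, 377 and 346 in red light, at positions 24963190 to 24963738 of chromosome 5 (TAIR10), 852 bp from MIR399c and 1196 bp from AGL42. MIR826a and MIR826b, neighbouring loci whose microRNA targets a gene of glucosinolate synthesis, shared a site with 505, 490.5 and 512 tags in blue light replicates 1 to 3, against 352, 258 and 248 in red light, at positions 1340195 to 1340743 of chromosome 4, 45 and 87 bp from their ends. At both of these sites the blue values were all higher than the red ones. The site of MIR158a was centred inside the locus, 12 bp from its end and 509 bp from AT3G10750, at positions 3366134 to 3366682 of chromosome 3. MIR158a had 464, 427 and 454 tags in blue light replicates 1 to 3, against 447.5, 279.9 and 315.5 in red light. MIR861 had 323, 318 and 334 tags in blue light replicates 1 to 3, against 275.5, 164 and 135 in red light, 190.5 bp from its end. MIR823, of the microRNA that targets the DNA methyltransferase CMT3, had 567, 526 and 514 tags in blue light replicates 1 to 3, against 500.2, 342 and 345 in red light, at a site inside PRA8. MIR8182 had 652, 648 and 603 tags in blue light replicates 1 to 3, against 617, 317 and 339 in red light, at a site inside AT3G61270. The other loci of the 9, MIR168a and MIR172b, are described with their families. Red light replicate 1 came within the blue range at MIR158a and MIR8182, and all blue values lay above the red ones at MIR861 and MIR823.

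The lists of families, chosen with earlier results of these data known, hold 102 loci, of which 27 were called in blue (26.5%) and 19 in red light (18.6%), against 48 (21.4%) and 29 (12.9%) of the 224 other loci and 44.6% and 27.4% of protein-coding genes. No enrichment was tested.

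The copper families (MIR397, MIR398, MIR408 and MIR857), whose microRNAs target laccases and other copper proteins, had 5 of 7 loci called in blue and 4 in red light. Blue means of the 5 ran from 108.2 to 278.9 tags, against a median of 249.6 over the 69 microRNA sites called in blue light. MIR408 had 198, 208 and 196 tags in blue light, against 128 and 128 in red light replicates 2 and 3 and no peak in red light replicate 1, at positions 19319341 to 19319709 of chromosome 2. This site lay 286 bp from MIR408 and 131 bp from AT2G47010. Both red values lay below all 3 blue ones. MIR398a had 265, 276 and 295 tags in blue light replicates 1 to 3, against 209.7, 167 and 135 in red light, with nearly equal distances of 384.5 bp to its own end and 369.5 bp to that of NRP1, and all blue values lay above the red ones. MIR398b had 204, 170.1 and 190.2 blue light tags and no peak in red light. Its site centre lay inside the microRNA locus, 52 bp from the locus end, and also inside AT5G14550. MIR857 and MIR397b shared a low site with 103, 88 and 134 tags in blue light replicates 1 to 3, against 138, 62.4 and 85.8 in red light, where the lights overlapped. Its centre lay 179.5 bp from AT4G13550, 946.5 bp from MIR857 and 1413.5 bp from MIR397b, so the calls of both loci rest on 1 site. MIR397a and MIR398c had no peak in any list.

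Of the families that target the silencing machinery itself, MIR168a and MIR168b, which target AGO1, were called in all 6 lists. MIR168a had 508, 468 and 472 tags in blue light replicates 1 to 3, against 429, 282.5 and 289 in red light, at positions 10578046 to 10578594 of chromosome 4, 280 bp from its end and 951 bp from AT4G19390, and all blue values lay above the red ones. MIR168b had 306, 254 and 317 tags in blue light replicates 1 to 3, against 274.5, 203 and 207 in red light, with a site 135.5 bp from AT5G45310 and 228.5 bp from MIR168b, and the lights overlapped. MIR162a, which targets DCL1, had 151, 151 and 146 blue light tags and no peak in red light, 49 bp from NF-YB12. MIR162b and MIR403, which targets AGO2, had none.

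The phase change families, MIR156 and MIR157, which target SPL factors, and MIR172, which targets AP2-like factors, had 6 of 19 loci called in blue and 5 in red light. Besides MIR157d these were MIR156d (374, 341 and 375 tags in blue light replicates 1 to 3, against 353.5, 228 and 223 in red light), MIR156h (305, 284 and 324 tags in blue light replicates 1 to 3, against 306, 231 and 214.5 in red light), MIR172b and MIR172c. At both loci red light replicate 1 came within the blue range, and the site of MIR156d lay inside AT5G10946. MIR172b had 291, 275 and 309 tags in blue light replicates 1 to 3, against 234, 180.3 and 173 in red light, at positions 1188349 to 1188897 of chromosome 5, 325.5 bp from its end and 3632.5 bp from the nearest protein-coding end, that of AtRZ-1c, and all blue values lay above the red ones. MIR172c had 217, 198 and 164 tags in blue light replicates 1 to 3, against 180.5, 130 and 134 in red light, at 1400.5 bp from its end and thus close to the limit of the window. MIR156b, with 137 and 117 tags in blue light replicates 1 and 2, was called in blue light alone.

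Among the families of leaf and meristem development 4 of 25 loci were called in blue and 1 in red light. MIR159a, which targets MYB factors, had 391, 399.5 and 375 tags in blue light and 218 in red light replicate 2 alone, at positions 27713612 to 27713983 of chromosome 1, 381.5 bp from its end and 1112.5 bp from that of CDKD1;1. MIR166g, MIR166c and MIR166a, which target HD-ZIP III factors, had 323.5, 177 and 120.2 tags on average in blue light, and MIR166g alone had red peaks (309, 176 and 187). None of the loci of MIR164, MIR171 and MIR319, with 3 loci each, had a peak. Of 11 loci of the auxin families MIR390a, with 143, 126 and 124 tags in blue light, against 104 and 85 in red light replicates 2 and 3, was called in both lights and MIR167c, which targets ARF factors, in blue light alone with 208, 215 and 186 tags and a site 5 bp from AT3G04760. MIR160 and MIR393 loci had no peak.

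Of 27 loci of the nutrient families MIR399c, MIR169a and MIR169g were called in both lights, MIR169a with 323, 293 and 339 tags in blue light replicates 1 to 3, against 251, 204 and 209.5 in red light. The 6 loci of MIR395, of sulphate starvation, had no peak. Of the flavonoid families MIR828, which targets MYB factors and triggers trans-acting siRNAs, was called in all 6 lists with 439, 421 and 457 tags in blue light replicates 1 to 3, against 353.5, 243.5 and 273 in red light, 66.5 bp from ACBP2 and 321.5 bp from MIR828, whereas MIR858a and MIR858b had no peak. Of 6 loci of defence and secondary metabolism, MIR163, of the microRNA that targets methyltransferases, had 543, 538 and 555.5 tags in blue light and 310.3 and 237 in red light replicates 1 and 2, at positions 24883458 to 24884006 of chromosome 1. The site lay 352 bp from MIR163 and 967 bp from LIG6, and the red values stood well below the blue ones. MIR472, which targets NLR immune receptors, had 255, 222.5 and 190.2 blue light tags and no peak in red light. Of the 4 loci of trans-acting siRNA triggers, MIR390a and MIR828 were called in both lights.

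**Figure D3:**
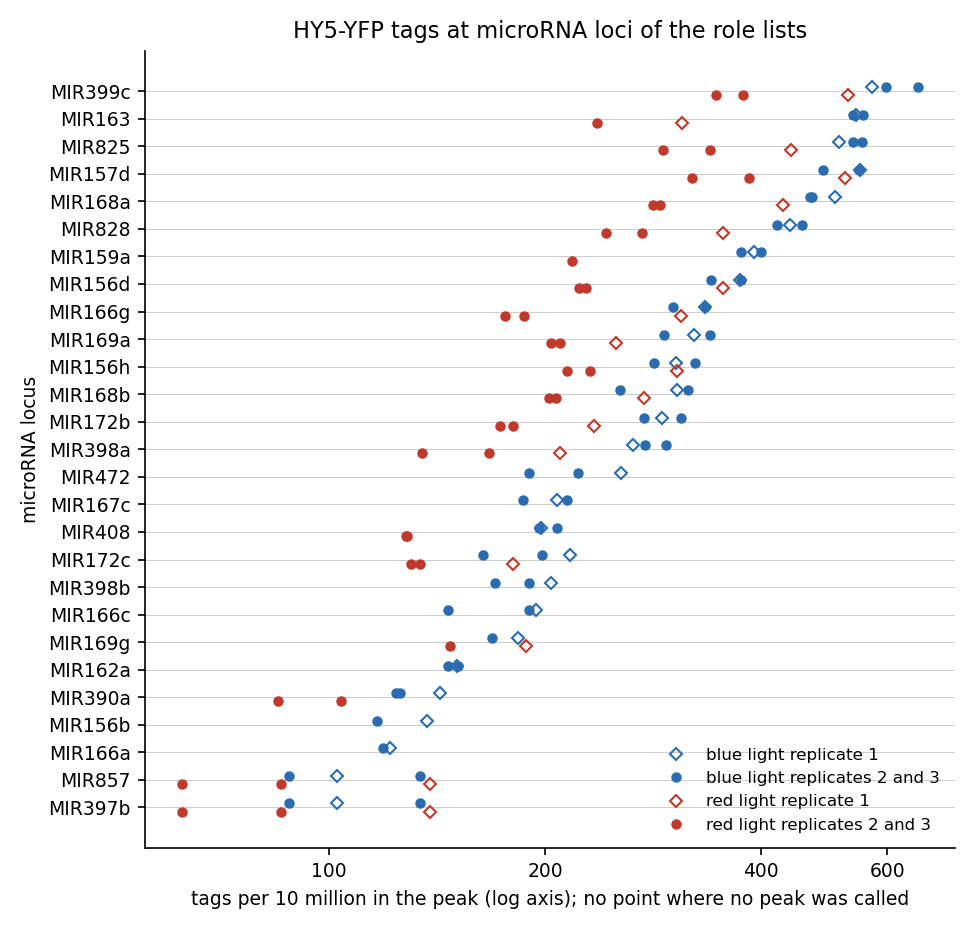
Tags per 10 M (log axis) in the peak of each library at the 27 called loci of the family lists, with blue light points above red light points in each row, open diamonds for replicate 1 and circles for replicates 2 and 3; no point means no peak. Red light replicate 1 stands to the right of both other red libraries wherever all 3 red lists hold a peak, and the highest row is MIR399c.

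Other loci called in both lights had their sites nearer to a protein-coding gene, with few exceptions. MIR829, MIR5635c, MIR780 and MIR870, called in all 6 lists, averaged 454, 434, 418 and 386 tags in blue light, against 336, 297, 302 and 264 in red light. MIR4245, MIR5659, MIR8167c, MIR5634, MIR5019 and MIR5641 were in all 6 lists as well, with blue means of 314 down to 144 tags. MIR5023, MIR4240, MIR866, MIR8176, MIR447a, MIR781a, MIR781b and MIR8183 were in 3 blue and 2 red lists. Of these 18 loci MIR4240, MIR866 and MIR8183 had their own end nearer. MIR4240 had 362, 351 and 318 tags in blue light, against 153 and 154 in red light replicates 2 and 3, with the nearest protein-coding end that of the iron transporter gene IRT1, 1798 bp away. The site of MIR8183 lay inside the microRNA locus, with 126, 130.5 and 136 tags in blue light, against 84.1 and 103.5 in red light replicates 2 and 3. Both red values lay below the blue ones at MIR4240 and at MIR8183.

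The loci called in blue light alone had low peaks that stood little above what the mock required. Their mean blue tags ranged from 67.9 (MIR4221) to 388.7 (MIR159a), with a median of 140.2, against a median of 324 over the 48 loci called in both lights. A peak needed 4-fold the mock, and the blue mean was a median of 1.48 times that requirement at the 27 loci (range 1.12 to 2.47) and 2.71 times at the 48 (range 1.08 to 5.99). At MIR159a, with a median of 38 mock tags, the requirement came to 222 tags per 10 M, and the blue mean was 1.75 times as high. At 25 of the 27 loci the blue mean was under 2 times the requirement, the exceptions being MIR398b and MIR8172, the latter with 5 to 6 mock tags. The same values are not given here for all sites called in blue light alone, so they are a description and show nothing particular to microRNA loci. What part this distance to the requirement has in the missing red calls was not tested. With lists of equal length MIR159a, MIR842 and MIR846 were called in blue light alone, and MIR169g, MIR172c, MIR5019 and MIR5634 in red light alone.

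Of the 27, 21 had no peak in any red list and 6 had 1 (MIR159a, MIR170, MIR844, MIR5652, MIR402 and MIR2938). After MIR159a the highest were MIR842 and MIR846, loci of microRNAs that target jacalin-like lectin genes, at a shared site with 232, 268 and 256.5 blue light tags and no peak in red light. MIR5999 had 227, 256 and 224 tags, 364 bp from its end and 620 bp from IGMT4, and the mock held 36 tags there. MIR170 (220, 185 and 220.2 tags), MIR835 (192 and 196 in replicates 2 and 3), MIR405a (169.5, 170.1 and 164), MIR844 (137, 148 and 155) and MIR865 (157, 151 and 113) were lower, and MIR865 lies beside the flowering gene CO, with its site 139 bp from the microRNA end and 311 bp from CO. MIR405a had its own end nearer (235 bp, against 998 bp to IAA8). MIR2938 was the single one of the 6 whose red peak, of 79.9 tags, was above its blue mean of 70.4. MIR5652, MIR776, MIR402, MIR850, MIR863, MIR4227, MIR5022, MIR8172, MIR5647 and MIR4221 had blue means of 67.9 to 130.4 tags.

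**Figure D4:**
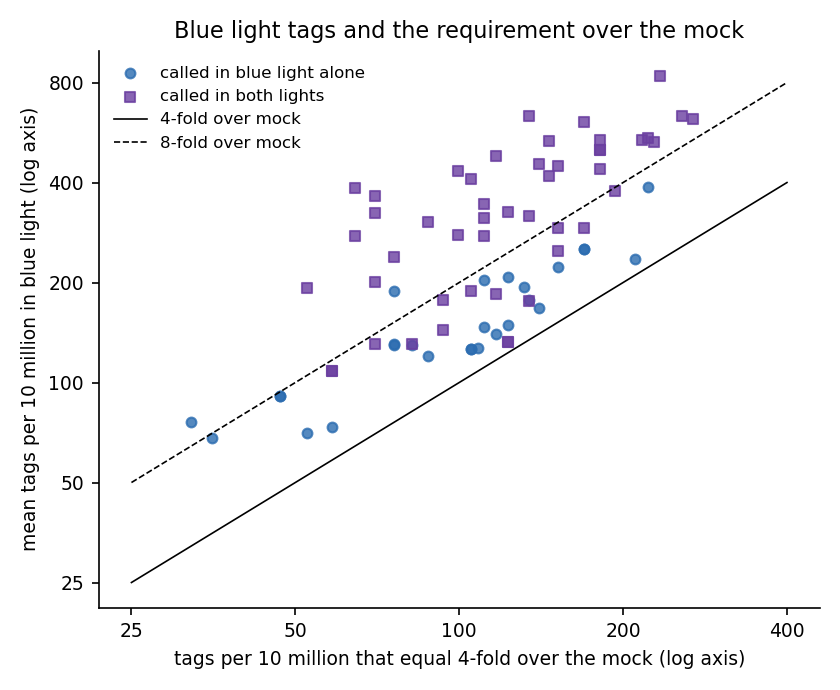
Mean tags per 10 M in blue light (vertical) against the tags that equal 4-fold the mock at the site (horizontal), both on log axes, for the 75 called loci; circles were called in blue light alone and squares in both lights, the solid line marks 4-fold and the dashed line 8-fold over the mock. Of the 27 circles 25 lie under the dashed line, as do 15 of the 48 squares.

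The list medians at microRNA peaks were 19 to 20 mock tags in blue light, against 19 over all peaks, and 31, 20 and 18 in red light, against 31, 18 and 18. The fold over the mock had medians of 7.82 to 8.34 in blue and 7 to 7.28 in red light at microRNA peaks, against 8.07 to 8.18 and 6.86 to 6.95 over all peaks. The fold over the surrounding sequence was higher at microRNA peaks in each of the 6 lists, with medians of 8.63 to 8.83 in blue and 7.57 to 8.14 in red light, against 7.37 to 7.45 and 6.51 to 6.7 over all peaks; the difference was not tested. In height, the 69 microRNA sites called in blue light had a median of 249.6 tags (quartiles 147 and 409), against 216 (149.8 and 339) over all 8633 blue sites, and the 45 called in red light a median of 224, against 208.5 over 5043 red sites.

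At the 35 microRNA sites called in all 6 libraries, which belong to 36 loci, tags were higher in blue than in red light on average at every site, by about as much as elsewhere in the genome. The log2 fold of blue over red light on log2(tags per 10 M + 1) ranged from 0.23 at MIR397b and MIR857 to 0.85 at MIR5628, with a median of 0.49, against 0.48 over all 3557 sites. By limma with Benjamini-Hochberg adjustment over all 3557 sites, 22 of the 35 were higher in blue light, against 51.9% of all sites, and 0 in red light, against 0.0281% (0 at an unadjusted p under 0.05 too). The 4 largest folds were at MIR5628 (0.85, SE 0.21, limma adjusted p = 0.00122), MIR826a and MIR826b (0.83, SE 0.21, 0.00178), MIR861 (0.83, SE 0.21, 0.00193) and MIR777 (0.76, SE 0.21, 0.00418). With each library centred on its median over all sites, the SE at these 4 was 0.086, 0.076, 0.10 and 0.076. The adjusted p-values of the uncentred fit thus include differences that whole libraries share, and taken alone they are not evidence for single sites. MIR5628 had 403, 422 and 402 tags in blue light replicates 1 to 3, against 266, 207 and 209 in red light, and all blue values lay above the red ones. Of the family lists MIR398a, MIR828, MIR825, MIR172b, MIR166g, MIR399c, MIR168a, MIR169a and MIR156d passed, with folds of 0.47 to 0.73, and MIR157d, MIR172c, MIR168b, MIR156h and the site of MIR397b and MIR857 did not.

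The number of calls changed with each library left out, while the size of the folds changed less. The median log2 fold over the microRNA sites was 0.50, 0.53 and 0.50 without blue light replicate 1, 2 and 3, and 0.64, 0.40 and 0.45 without red light replicate 1, 2 and 3, against 0.49 with all libraries. Without red light replicate 1, all 42 microRNA sites then called in every library were higher in blue light (98.0% of all sites), while without blue light replicate 1, 2 or 3 the count was 1, 0 and 1 of 35 (4.19%, 4.18% and 3.93% of all sites; 16 at an unadjusted p under 0.05 by limma without replicate 2), and without red light replicate 2 or 3 it was 5 of 36 and 4 of 38 (5.99% and 5.78%). When peaks had to reach 8 times the mock, 6 of 11 sites were higher in blue light (45.1% of all such sites), and with the replicate number as a block 17 of 35 (39.3%). In tag numbers, every blue library lay above red light replicates 2 and 3 at all 36 loci, and above red light replicate 1 as well at 20 of them. The median over these 36 loci was 399, 397 and 391.6 tags in blue light and 349, 229.7 and 219.6 in red light. The same counts are not given here for all sites, so they are a description and show nothing particular to microRNA loci. This holds too for the order of blue and red values given at single loci. Library medians over all sites were 8.50, 8.46 and 8.51 log2 tags in blue light replicates 1 to 3. They were 8.32, 7.79 and 7.79 in red light replicates 1 to 3, so every blue median also lay above every red one. With each library centred on its median over all sites, 4 microRNA sites were higher in blue light relative to that median, MIR5628 (0.33), MIR826a and MIR826b (0.30), MIR861 (0.30) and MIR777 (0.24; limma adjusted p = 0.00366 to 0.0327), against 7.96% of all sites, and 0 in red light, against 11.8% (4 at an unadjusted p under 0.05). Centred and without red light replicate 1, a setting chosen after seeing the data, it was 6 of 42 (8.49%).

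**Figure D5:**
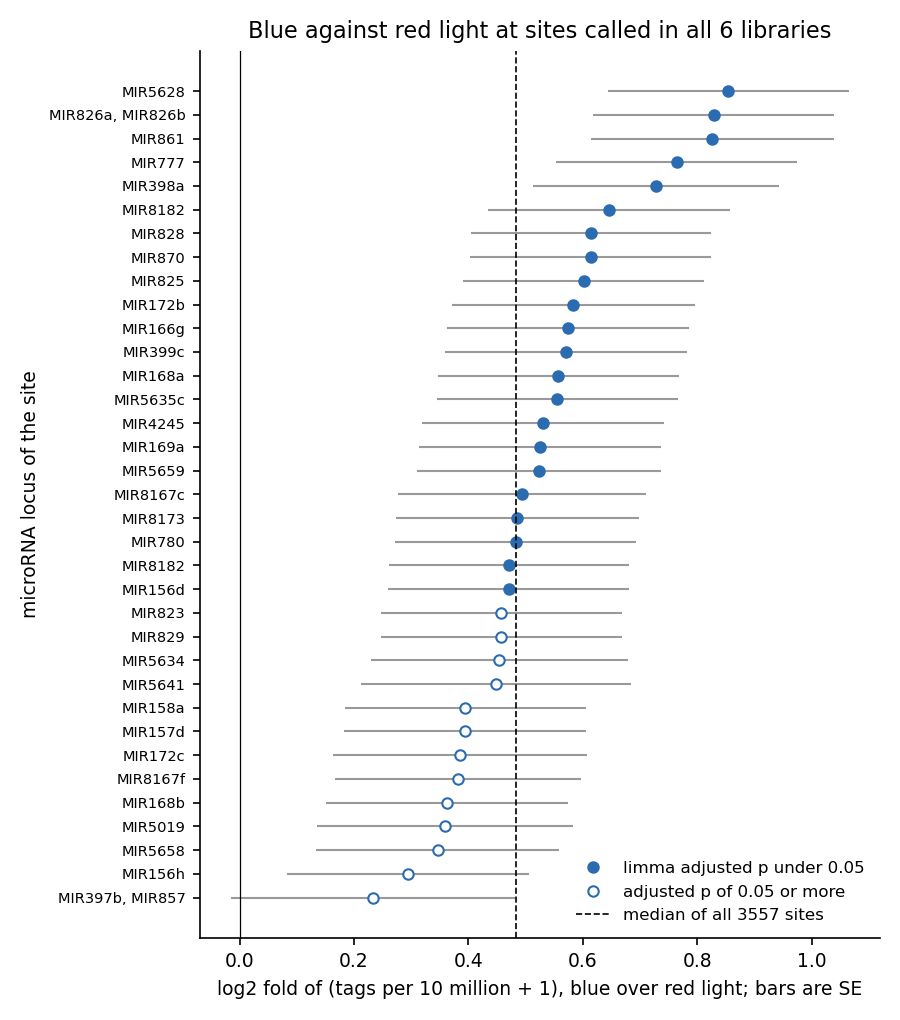
Log2 fold of blue over red light on log2(tags per 10 M + 1) at the 35 microRNA sites called in all 6 libraries (points, with the standard error from limma as bars), filled where the limma adjusted p was under 0.05; the dashed line is the median of all 3557 sites, 0.48. The 35 points lie on both sides of that median, from 0.23 to 0.85; MIR8182 has a pair of sites.

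Of 25 protein-coding genes that make and use microRNAs, a list chosen with earlier results known, 8 were called in blue and 3 in red light, against 44.6% and 27.4% of all protein-coding genes. With so few genes, and no test, the counts are a description. AGO1, the effector that MIR168 targets, had the highest site, with 1233.5, 1255 and 1186 tags in blue light replicates 1 to 3, against 1009.7, 738 and 812 in red light, 48.5 bp from its own end. All blue values lay above the red ones. SPL7, the copper regulator that controls MIR408, had 520.4, 459 and 514 tags in blue light, against 469, 285 and 282 in red light, at a site nearer to Cpn60alpha2 (429.5 bp) than to SPL7 (866.5 bp). URT1, a uridylyltransferase that tails microRNAs, had 389, 378 and 422 tags in blue light, against 316, 271 and 251 in red light, at a site 155.5 bp from its own end and 133.5 bp from AT2G45630. All blue values lay above the red ones at URT1, while red light replicate 1 came within the blue range at SPL7. These 3 sites were higher in blue light by limma (log2 folds of 0.53, 0.57 and 0.51, adjusted p = 0.0367, 0.0246 and 0.0371). With each library centred on its median none of the 3 passed, with log2 folds of 0.01 at AGO1, 0.04 at SPL7 and -0.02 at URT1 (limma adjusted p = 0.962, 0.772 and 0.904). HYL1, the double-stranded RNA binding partner of DCL1, had 186, 174 and 168 blue light tags and no peak in red light. DDL and DRB4, with 1 red list each, and RDR6 and SGS3, with none, were called in blue light alone too, with means of 170.2, 217, 114 and 352 tags. The SGS3 site lay nearer to AT5G23575 (55 bp) than to SGS3 (193 bp). DCL1, SE, HST and AGO2 were among the 14 genes with no peak in any list.

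The limit of 1500 bp decided a few calls. Within 100 bp inside it lay peaks of 7 loci, among them MIR8167f, MIR397b, MIR172c and MIR169g, and within 100 bp outside it peaks of 4. MIR169g shows the effect, with blue light centres at 1455 and 1447 bp counted and that of replicate 2, of 189.9 tags, at 1503 bp not counted. MIR5999 had a further site just outside, with centres at 1530 to 1546 bp and 211 to 233 tags in blue light, against 1517 to 1550 bp and 146 to 182 tags in red light, in all 6 lists, so that its listing as called in blue light alone depends on the limit. The outer peaks also included those of MIR160c, of an auxin family, at 1553 to 1561 bp with 102.7 and 102.8 tags in blue light replicates 1 and 2 and 98.4 tags in red light replicate 3.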

How the data were processed

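Peak lists of 6 HY5-YFP ChIP-seq libraries were used as deposited. Per the submitters' processing notes, HOMER 4.9 and build TAIR10 were used. Peaks were called per library, per the file headers, with the mock as control, 4-fold enrichment over the mock and over the surrounding 10000 bp, a Poisson p of 0.0001 and a false discovery rate of 0.001. The deposited signal is the tag number per peak scaled by the authors to 10 M tags, and the deposited ratio is the fold over the mock or the surroundings, per the file headers. Mock tags are those the lists give. No source used here names the aligner.

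Peak centres were joined to gene ends of the RefSeq table (TAIR10.1) within 1500 bp. Peaks sharing at least 1 bp formed a site. Sites called in all 6 libraries were compared with limma 3.58.1 (R 4.3.3, trend) on log2(tags per 10 M + 1). Benjamini-Hochberg adjustment ran over all sites, with a threshold of 0.05. The fit was first run on simulated data. Their spread was taken after centring each library and they held no shift of a whole library. They therefore cannot show how the uncentred fit behaves under such a shift. A site lacking a peak in any library did not enter. Counts per library were compared with an exact permutation test (Python 3.11.15, numpy 2.4.6). The requirement over the mock is 4 times the mock tags, scaled to 10 M. That microRNA loci were examined, the family lists and the pathway list were all chosen with earlier results of these data known. The text names all loci called in at least 2 lists of a light (thus also those of 1 light), the 4 largest limma folds and pathway genes with a call. Values by library were due for the 12 loci highest in blue light and for those in all 6 lists with their own end nearer; other named loci may have means or ranges. Alternatives covered window, list length, fold over the mock, nearest gene, pseudocount, low-value filter, overlap, scaling, block and left-out replicates. Motifs were not searched.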

Additional observations from a re-analysis of the deposited data

How the results depend on the processing

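All direction changes but 2 came with centring each library on its median. The count of called loci depended on the window, with 37 blue and 24 red loci at 500 bp (difference per library 16.7) and 129 and 86 at 3000 bp (49.7), on peaks at least 8-fold over the mock (36 and 17, 21), on equally long lists (38 blue loci, -0.333) and on peaks nearest to the microRNA end outside protein-coding genes (21 and 12, 11.7). Of these alternatives, the share of protein-coding genes called is given for equally long lists only (21.6% in blue and 21.6% in red light). Leaving out 1 replicate gave 71 to 72 blue loci, 38 to 43 red loci and differences of 29 to 34.5. The limma count of 22 became 4 with each library centred, 6 with 8-fold peaks, 0 to 42 without 1 replicate and 6 when centred without red light replicate 1, a combination chosen after seeing the data. With the replicate block it was 17; same-numbered libraries did not pair, with correlations of their deviations of -0.037, -0.087 and 0.045. Under centring the log2 folds that changed sign were -0.29 (MIR397b and MIR857), -0.23 (MIR156h), -0.18 (MIR5658), -0.17 (MIR5019), -0.16 (MIR168b), -0.15 (MIR8167f), -0.14 (MIR172c), -0.13 (MIR157d), -0.13 (MIR158a), -0.0788 (MIR5641), -0.0727 (MIR5634), -0.0698 (MIR829), -0.0692 (MIR823), -0.0567 (MIR156d), -0.0563 (MIR8182), -0.0443 (MIR780), -0.0413 (MIR8173), -0.0331 (MIR8167c), -0.00377 (MIR5659) and -0.00208 (MIR169a). Centred without red light replicate 1 they were -0.24 (MIR156h), -0.19 (MIR168b), -0.17 (MIR5658), -0.15 (MIR172c), -0.15 (MIR397b and MIR857), -0.12 (MIR8167c), -0.12 (MIR5019), -0.11 (MIR8173), -0.10 (MIR8167f), -0.10 (MIR157d), -0.0995 (MIR4245), -0.0978 (MIR158a), -0.0795 (MIR780), -0.0793 (MIR5634), -0.0706 (MIR169a), -0.063 (MIR5641), -0.051 (MIR823), -0.0448 (MIR829), -0.0186 (MIR5635c) and -0.00294 (MIR156d). Leaving out 1 replicate, the fold at MIR397b and MIR857 ran between -0.0311 (without red light replicate 2) and 0.54 (without red light replicate 1). The cause of these changes was not tested. Count tests on recovered tags were not run, since the scaled tags did not come out whole. The mock is 1 library from blue light plants, and peak calls do not show absence below the requirement.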
